A study of Mus musculus with 6 samples.

Results

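Fatty acid synthesis, activation, storage and oxidation were followed through 34 genes. They were chosen by name from the pathway, with earlier results of these data known, and matched to the gene symbols of the deposited tables. All 34 were found among 24346 symbols. The study measured RNA by sequencing in luminal cells of the mouse prostate, the secretory epithelium that lines its glands. C57BL/6 wild-type (WT) littermates were compared with mice that carry mouse Csf1 as a transgene under the rat probasin promoter, a promoter of prostate epithelium. Its product, colony-stimulating factor 1, controls the survival and growth of macrophages. Cells were taken by flow sorting at 4 months of age. Each group has 3 libraries, numbered 3, 5 and 8 in the titles, and the transgenic group is named CSF1 below. Sort markers and the number of animals behind a library were not stated, so each p-value covers the spread between libraries, which may be technical.

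Fatty acids are built in the cytosol from acetyl-CoA. Acetyl-CoA carboxylase makes malonyl-CoA and fatty acid synthase joins it into palmitate, which elongases lengthen and desaturases supply with double bonds. Acyl-CoA synthetases activate a fatty acid by joining it to coenzyme A. The activated chain is then stored as triglyceride in droplets coated by perilipins, built into membranes, or carried by carnitine into mitochondria and shortened by β-oxidation. SREBP-1, the product of Srebf1, drives the synthetic genes, whereas the nuclear receptors PPARα and PPARγ respond to fatty acids and control oxidation and storage. In prostate epithelium, androgens promote lipogenic genes.

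The elongase genes Elovl5 and Elovl7, the front-end desaturase gene Fads1, the uptake genes Lpl and Cd36 and the droplet coat gene Plin2 were higher in CSF1. Elovl1 and Fads2 were also called higher, but lost the call in 10 of 21 and 12 of 20 other settings of the fit. Fatty acid synthase and the stearoyl-CoA desaturases did not pass as higher. Values are FPKM, fragments per kilobase of transcript scaled to the mapped fragments of the library, summed over the transcripts of a gene. Changes are CSF1 over WT in log2 of FPKM + 1, a scale that understates the change of low genes, with the standard error (SE) of the fit. A gene was called higher or lower at an adjusted p under 0.05 in limma, a linear model fitted to all 10951 genes that averaged 1 FPKM or more. Of the 34 members, 30 entered this fit, and 13 were higher, 1 was lower and 16 did not pass. Among all tested genes, 24.9% were called higher, 7.47% lower and 32.4% in either direction. The median log2 change was 0.46 for the 30 tested members and 0.17 for all tested genes. In 16 tested members every CSF1 library lay above every WT library, and in 1 below, where 34.7% and 13.1% of all tested genes did so, 47.7% together. Of the 13 higher members, 4 (Fads1, Fads2, Cd36 and Pparg) had a WT mean under 1 FPKM and entered the fit through their CSF1 level.

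**Figure D1:**
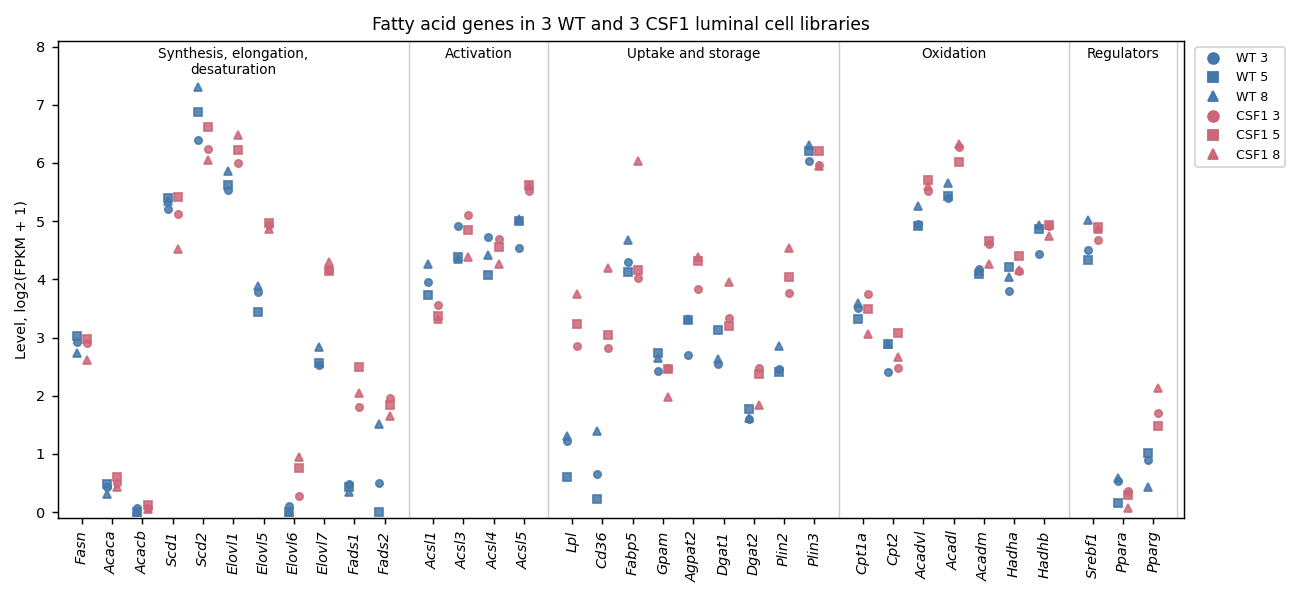
Level of each of the 34 genes in log2(FPKM + 1) by role, with WT libraries in blue and CSF1 libraries in red and a symbol for each library number. Elovl5, Elovl7, Fads1, Lpl, Cd36 and Plin2 lie higher in all 3 CSF1 libraries than in any WT library, while the points of Fasn, Scd1, Plin3 and Cpt1a overlap.

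The libraries differed in more than the transgene. Csf1 stood at 1.54 to 3.98 FPKM in WT and 1082 to 1678 FPKM in CSF1. Krt8 and Krt18, keratins of luminal cells, were between 1049.8 and 2666 FPKM in all 6 libraries. They belong to a list of 13 luminal markers, of which 4 were called higher in CSF1, 1 was lower and 8 did not pass. Its summed level ran from 10849 to 30180 FPKM in WT and from 8699 to 17268 FPKM in CSF1. The mean log2(FPKM + 1) of the 13 genes ran from 7.03 to 7.28 in WT and from 7.21 to 7.73 in CSF1. All 20 macrophage markers were called higher in CSF1, as were all 13 tested fibroblast and smooth muscle markers, 9 of 10 tested basal markers, all 4 tested endothelial and all 4 tested lymphocyte markers. Coverage per FPKM, a measure of depth, spanned 2.72 to 3.502 in the WT and 4.17 to 5.01 in the CSF1 libraries. The balance of directions depended on scaling. Of all called genes, 76.95% were higher without rescaling, 59.03% after rescaling to the genes outside the 5 most abundant, 53.6% after median-ratio scaling and 41.8% after quantile normalization. In that order the median change of all genes was 0.17, -0.0048, -0.029 and -0.16.

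Promoter sequences (RefSeq, GRCm38.p6) were at hand for 27 of the 34 members and are shown for the 4 of these with the largest rises. No sequence was at hand for the other 7, Lpl and Fads1 among them. Each window covers 250 bases before the annotated start of transcription and 50 from it onward, read 5′ to 3′ on the gene's strand. Capitals mark 3 short motifs searched on both strands. They are CCAAT, bound by NF-Y, a partner of SREBP, the core CACCCCA of a sterol regulatory element, and AGGTCA, the half-site that PPAR and its partner RXR bind in pairs. The Cd36 window is at the start of 2 of its 5 listed transcripts, and its most abundant transcript starts elsewhere.
Cd36 (chr5:17835847-17836146, minus strand): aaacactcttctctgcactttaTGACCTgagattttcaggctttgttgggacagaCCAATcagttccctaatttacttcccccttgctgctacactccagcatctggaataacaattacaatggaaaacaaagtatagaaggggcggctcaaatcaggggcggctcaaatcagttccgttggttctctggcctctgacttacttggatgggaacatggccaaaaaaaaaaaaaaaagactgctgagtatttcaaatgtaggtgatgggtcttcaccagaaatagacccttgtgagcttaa
Elovl7 (chr13:108214154-108214453, plus strand): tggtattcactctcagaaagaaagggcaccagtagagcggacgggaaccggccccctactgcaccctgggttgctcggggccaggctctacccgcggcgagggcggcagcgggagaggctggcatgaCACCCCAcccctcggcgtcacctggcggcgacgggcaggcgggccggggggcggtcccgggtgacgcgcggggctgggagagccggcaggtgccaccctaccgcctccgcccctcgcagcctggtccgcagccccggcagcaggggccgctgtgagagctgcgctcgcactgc
Plin2 (chr4:86670010-86670309, minus strand): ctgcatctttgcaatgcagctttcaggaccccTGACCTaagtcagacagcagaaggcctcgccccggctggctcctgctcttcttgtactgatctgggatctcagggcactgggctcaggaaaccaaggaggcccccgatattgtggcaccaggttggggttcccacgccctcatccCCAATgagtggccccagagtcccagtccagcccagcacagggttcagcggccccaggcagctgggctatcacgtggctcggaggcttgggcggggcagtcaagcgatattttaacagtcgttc
Elovl5 (chr9:77917115-77917414, plus strand): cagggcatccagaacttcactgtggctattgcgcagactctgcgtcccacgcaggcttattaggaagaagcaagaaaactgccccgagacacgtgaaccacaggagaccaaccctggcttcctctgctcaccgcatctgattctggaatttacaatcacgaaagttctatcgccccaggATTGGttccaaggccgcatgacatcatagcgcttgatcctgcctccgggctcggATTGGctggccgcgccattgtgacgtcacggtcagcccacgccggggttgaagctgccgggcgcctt
Elovl5 held 2 CCAAT motifs, both on the strand opposite to the gene, at positions -71 and -17 from the start of transcription. Plin2 and Cd36 each held 1 CCAAT motif and 1 half-site, and Elovl7 held 1 sterol element core. Over all 32851 windows of this length, 37.4% held CCAAT, 7.62% held CACCCCA and 16.3% held AGGTCA. The 27 member genes have 34 windows, since 5 of them (Elovl1, Acsl1, Gpam, Srebf1 and Pparg) start at several sites. Of these windows, 16 (47.1%) held CCAAT, 4 (11.8%) held CACCCCA and 11 (32.4%) held AGGTCA. A match describes the letters and is not evidence of binding.

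The first steps of synthesis gave no call. Fasn (chromosome 11, 120805846 to 120824547, GRCm38), which encodes fatty acid synthase, measured 6.63, 7.13 and 5.63 FPKM in the WT libraries 3, 5 and 8, against 6.47, 6.87 and 5.09 FPKM in the CSF1 libraries. The groups overlapped, with a log2 change of -0.067 ± 0.17 (limma adjusted p = 0.806). Acaca, the cytosolic acetyl-CoA carboxylase, spanned 0.242 to 0.392 FPKM in WT and 0.348 to 0.518 FPKM in CSF1. Acacb, the mitochondrial form whose malonyl-CoA restrains carnitine-dependent import, reached at most 0.0893 FPKM. Both carboxylase genes were below the filter and untested.

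The desaturases fell into separate patterns. Scd1 and Scd2, neighbours on chromosome 19 that encode stearoyl-CoA desaturases, were among the most abundant members. Scd2 measured 83.6, 117 and 158 FPKM in WT, against 74.7, 97.1 and 65.7 FPKM in CSF1. The CSF1 mean was lower but the groups overlapped, with a log2 change of -0.56 ± 0.24 (limma adjusted p = 0.112). Scd2 passed as lower without WT replicate 3 (limma adjusted p = 0.0288) and under the 3 other scalings (adjusted p from 0.0186 to 0.0314). Scd1 measured 35.8, 40.9 and 39.7 FPKM in WT, against 33.9, 41.4 and 21.9 FPKM in CSF1 (log2 change -0.30 ± 0.22, limma adjusted p = 0.343). Of the summed Scd1 and Scd2 FPKM, Scd1 held 20.1% to 29.97% in WT and 24.99% to 31.2% in CSF1. Since they are close paralogs, reads may have been divided between them with some error.

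The front-end desaturases, which add double bonds to polyunsaturated chains, rose. Fads1, the Δ5 desaturase (chromosome 19, 10182888 to 10196877), measured 0.396, 0.352 and 0.272 FPKM in WT, against 2.48, 4.66 and 3.15 FPKM in CSF1. Every CSF1 library exceeded every WT library, with a 10.1-fold higher mean and a log2 change of 1.70 ± 0.23 (limma adjusted p = 0.000926). Fads2, the Δ6 desaturase on the same chromosome, measured 0.412, 0 and 1.85 FPKM in WT, against 2.87, 2.58 and 2.14 FPKM in CSF1. WT replicate 8 came close to the CSF1 libraries, and the change was 1.15 ± 0.36 (limma adjusted p = 0.0415). With no filter on the level, Fads2 did not pass (limma adjusted p = 0.0963). It also missed the threshold with an adjusted p of 0.112 without WT replicate 3, 0.129 without WT replicate 5, 0.105 without CSF1 replicate 3, 0.0912 without CSF1 replicate 5 and 0.0568 without CSF1 replicate 8, and 0.06095 to 0.178 under the 3 other scalings.

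Elongases rose together among the tested genes. Elovl7, an elongase of saturated very long chains (chromosome 13, 108214404 to 108285683), measured 4.79, 4.898 and 6.19 FPKM in WT, against 16.9, 16.6 and 18.6 FPKM in CSF1. It rose 3.28-fold, by 1.55 ± 0.15 in log2 (limma adjusted p = 0.000173). Elovl5, which lengthens polyunsaturated chains (chromosome 9, 77917364 to 77984519), measured 12.8, 9.83 and 13.7 FPKM in WT, against 29.7, 30.3 and 28.3 FPKM in CSF1. It rose 2.43-fold, by 1.23 ± 0.16 (limma adjusted p = 0.000608). For both genes the CSF1 libraries lay close together and far above WT. Elovl1, another elongase of saturated very long chains, measured 45.6, 47.97 and 57.4 FPKM in WT, against 62.6, 73.4 and 88.1 FPKM in CSF1 (log2 change 0.55 ± 0.16, limma adjusted p = 0.03102). Its groups were apart, but its adjusted p was 0.0831 without WT replicate 3, 0.106 without WT replicate 5, 0.0775 without CSF1 replicate 5 and 0.0816 without CSF1 replicate 8, and 0.050004 to 0.134 under the 3 other scalings, none of which passed. Elovl6, which extends palmitate to stearate, was nearly absent, with 0.070996, 0 and 0 FPKM in WT and 0.205, 0.682 and 0.938 FPKM in CSF1, and was untested.

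**Figure D2:**
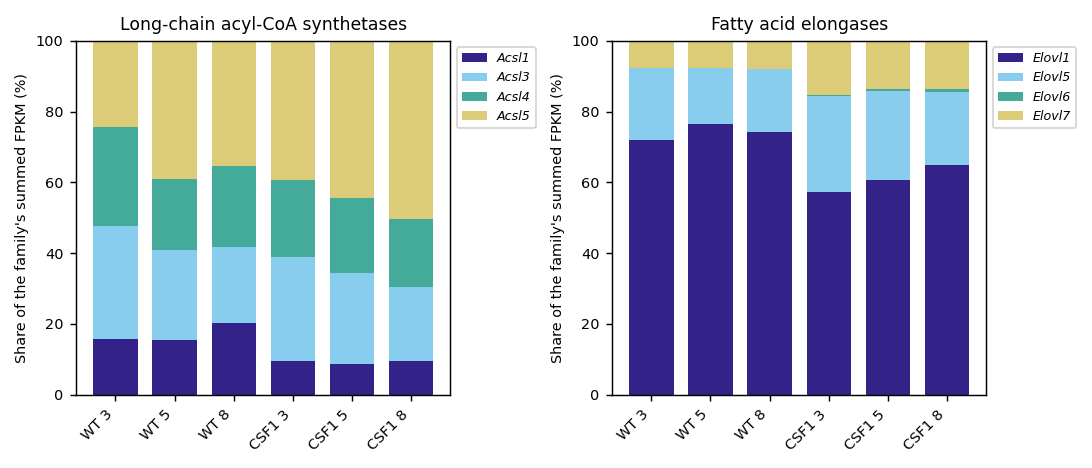
Share in percent of each gene in the summed FPKM of 4 acyl-CoA synthetases (left) and 4 elongases (right), with a stacked bar for each library. Acsl1 held 15.6% to 20.3% in WT and 8.65% to 9.49% in CSF1, and Elovl1 held 72.1% to 76.5% and 57.2% to 64.8%.

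The makeup of the elongase group differed too. Its 4 genes summed to 67.8 ± 8.26 FPKM in WT and 122 ± 13.2 FPKM in CSF1 (SD, n = 3 each). Elovl7 held 7.57% to 8.005% of that sum in WT and 13.7% to 15.5% in CSF1. Elovl1 was the most abundant of the 4 in every library. Shares were computed after the levels had been seen and carry no test.

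The activation genes divided. Acsl5, a synthetase of the mitochondrial outer membrane and endoplasmic reticulum, also on chromosome 19, measured 22.3, 31.02 and 31.9 FPKM in WT, against 44.8, 48.04 and 47.8 FPKM in CSF1. It rose 1.65-fold, by 0.72 ± 0.16 in log2 (limma adjusted p = 0.00979). Of its exonic bases, 8.3% overlap Zdhhc6 on the opposite strand, and the libraries do not separate strands. Zdhhc6 did not pass (log2 change 0.11 ± 0.20, limma adjusted p = 0.715). Acsl1, the main synthetase of fat, heart and liver, was the single member called lower. It measured 14.4, 12.3 and 18.3 FPKM in WT, against 10.8, 9.33 and 8.93 FPKM in CSF1. The groups were apart by a small margin, with a log2 change of -0.57 ± 0.18 (limma adjusted p = 0.03703). Its adjusted p was 0.0724 without WT replicate 3, 0.107 without WT replicate 8, 0.0516 without CSF1 replicate 3, 0.0976 without CSF1 replicate 5 and 0.0884 without CSF1 replicate 8. Under the 3 other scalings the change ran from -0.89 to -0.76 and passed each time.

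The other synthetases gave no call. Acsl3, found on lipid droplets and the endoplasmic reticulum, measured 29.1, 19.997 and 19.4 FPKM in WT, against 33.4, 27.8 and 19.8 FPKM in CSF1 (log2 change 0.23 ± 0.23, limma adjusted p = 0.485). Acsl4, which prefers arachidonic acid, measured 25.3, 15.8 and 20.5 FPKM in WT, against 24.8, 22.6 and 18.1 FPKM in CSF1 (log2 change 0.098 ± 0.20, limma adjusted p = 0.746). In both genes the groups overlapped and the library numbered 3 was the highest of its group. The change of Acsl3 turned negative with quantile normalization and that of Acsl4 under all 3 other scalings. Of the summed FPKM of the 4 synthetases, Acsl5 held 24.5% to 39.2% in WT and 39.4% to 50.5% in CSF1.

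Cd36 and Lpl, genes of fatty acid uptake, had the largest changes among the tested members on the log2(FPKM + 1) scale, on which low genes such as Fads1 are understated. Lpl encodes lipoprotein lipase, which frees fatty acids from circulating triglyceride (chromosome 8, 68880491 to 68907448). It measured 1.32, 0.514 and 1.49 FPKM in WT, against 6.26, 8.41 and 12.5 FPKM in CSF1. Its mean was 8.17-fold higher, with a log2 change of 2.24 ± 0.28 (limma adjusted p = 0.000608). Cd36, the fatty acid translocase and scavenger receptor (chromosome 5, 17781690 to 17888801), measured 0.5801, 0.1703 and 1.63 FPKM in WT, against 6.07, 7.22 and 17.3 FPKM in CSF1. It was 12.9-fold higher, with a log2 change of 2.59 ± 0.41 (limma adjusted p = 0.001799). Of its 5 transcripts, NM_001159556 held the most in every library, 42.4% to 53.8% in CSF1. CSF1 replicate 8 was highest for both genes, and without it the adjusted p was 0.00104 for Lpl and 0.00203 for Cd36 in limma.

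Fabp5, which encodes a fatty acid binding protein that carries lipid inside cells, gave no call. It measured 18.8, 16.5 and 24.7 FPKM in WT, against 15.3, 16.9 and 64.7 FPKM in CSF1. A single library, CSF1 replicate 8, stood far above the rest. The log2 change of 0.37 ± 0.48 (limma adjusted p = 0.596) turned to -0.27 without it (adjusted p = 0.341).

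The droplet coat genes differed from each other. Plin2, the perilipin of lipid droplets in most cells outside fat (chromosome 4, 86648386 to 86670060), measured 4.47, 4.34 and 6.26 FPKM in WT, against 12.6, 15.5 and 22.4 FPKM in CSF1. It rose 3.35-fold, by 1.54 ± 0.23 in log2 (limma adjusted p = 0.00132). Plin3, a perilipin that moves between cytosol and nascent droplets, was more abundant. It measured 64.8, 72.5 and 78.4 FPKM in WT, against 61.7, 72.4 and 60.4 FPKM in CSF1. The groups overlapped and the change of -0.15 ± 0.14 did not pass (limma adjusted p = 0.451), though it passed as lower with median-ratio scaling and quantile normalization (adjusted p = 0.0269 and 0.0402). Of the summed Plin2 and Plin3 FPKM, Plin2 held 5.64% to 7.397% in WT and 17.01% to 27.001% in CSF1.

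Among the members of triglyceride assembly, Agpat2 alone was called. The acyltransferase genes Agpat3, Agpat4 and Agpat9, outside the members, are described below. Gpam, the mitochondrial acyltransferase that starts glycerolipid synthesis, measured 4.39, 5.69 and 5.28 FPKM in WT, against 4.57, 4.51 and 2.94 FPKM in CSF1 (log2 change -0.30 ± 0.20, limma adjusted p = 0.287). It passed as lower with quantile normalization (-0.69, adjusted p = 0.0227). Agpat2, which adds the next acyl chain, measured 5.48, 8.88 and 8.97 FPKM in WT, against 13.3, 18.9 and 19.8 FPKM in CSF1. The groups were apart and it rose 2.23-fold, by 1.07 ± 0.23 (limma adjusted p = 0.00739). Of its exonic bases, 3.0% overlap Egfl7 on the opposite strand, which stood at 0.836 ± 0.819 FPKM in WT and 2.85 ± 0.597 FPKM in CSF1 (SD, n = 3; limma adjusted p = 0.0231).

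The last acyl chain can be added by either of a pair of unrelated enzymes. Dgat1 measured 4.82, 7.78 and 5.18 FPKM in WT, against 9.13, 8.22 and 14.5 FPKM in CSF1. The groups were apart and the change of 0.73 ± 0.25 narrowly missed the threshold (limma adjusted p = 0.0514). It passed without WT replicate 5 (adjusted p = 0.0414) or CSF1 replicate 5 (0.0458). Dgat2 measured 2.03, 2.43 and 2.08 FPKM in WT, against 4.55, 4.17 and 2.56 FPKM in CSF1 (log2 change 0.56 ± 0.22, limma adjusted p = 0.0822). It passed without CSF1 replicate 8, the lowest of its group (adjusted p = 0.0192).

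**Figure D3:**
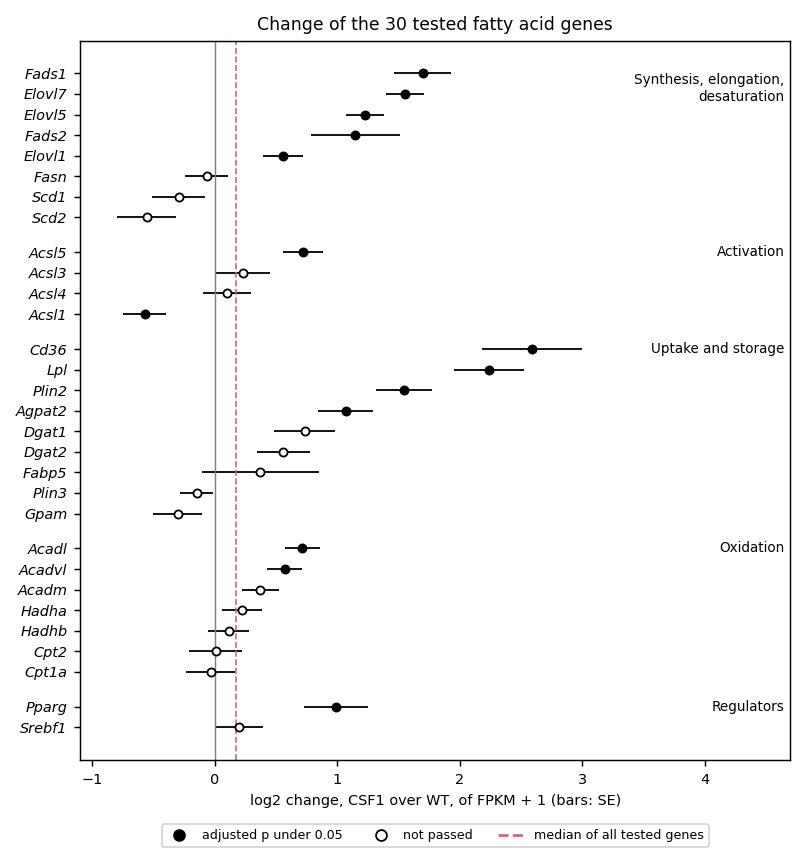
log2 change of FPKM + 1, CSF1 over WT, of the 30 tested members with its standard error, by role. Filled points had an adjusted p under 0.05, and the dashed line is the median of all tested genes at 0.17. Cd36 (2.59) and Lpl (2.24) lie farthest right, and Acsl1 (-0.57) is the filled point below 0.

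Of the 7 oxidation genes, 2 were higher, 0 were lower and 5 did not pass. The 28.6% called higher was near the 24.9% of all tested genes. The genes called, Acadl and Acadvl, encode acyl-CoA dehydrogenases, which take the first step of each β-oxidation round and differ in the chain length they accept. Acadl, the long-chain enzyme (chromosome 1, 66830839 to 66863277), measured 40.95, 42.3 and 49.2 FPKM in WT, against 75.96, 63.9 and 79.7 FPKM in CSF1. The groups were apart and it rose 1.66-fold, by 0.71 ± 0.14 in log2 (limma adjusted p = 0.00543). Acadvl, the very-long-chain enzyme, measured 29.98, 29.1 and 37.5 FPKM in WT, against 45.05, 51.5 and 47.8 FPKM in CSF1 (log2 change 0.57 ± 0.14, limma adjusted p = 0.016001). It missed the threshold with an adjusted p of 0.0747 without WT replicate 5 and 0.0619 without CSF1 replicate 5. It also missed the threshold after median-ratio scaling and after rescaling outside the 5 most abundant genes (adjusted p = 0.0551 and 0.0559). Of its exonic bases, 42.9% overlap Dvl2 on the opposite strand, so its value is uncertain. Dvl2 stood at 2.77 ± 0.221 FPKM in WT and 3.97 ± 0.469 FPKM in CSF1 (SD, n = 3; limma adjusted p = 0.113). Acadm, the medium-chain enzyme, measured 17.1, 16.04 and 16.6 FPKM in WT, against 23.5, 24.1 and 18.2 FPKM in CSF1. The groups were apart but the change of 0.37 ± 0.15 did not pass (limma adjusted p = 0.0935), and it passed without CSF1 replicate 8 (adjusted p = 0.0346).

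Carnitine-dependent import and the later steps gave no call. Cpt1a, the gate of mitochondrial entry, measured 10.3, 8.999 and 11.01 FPKM in WT, against 12.4, 10.3 and 7.38 FPKM in CSF1 (log2 change -0.034 ± 0.20, limma adjusted p = 0.917). Cpt2, on the inner membrane, measured 4.33, 6.43 and 6.42 FPKM in WT, against 4.59, 7.396 and 5.35 FPKM in CSF1 (log2 change 0.0068 ± 0.22, limma adjusted p = 0.986). Hadha and Hadhb encode the subunits of the mitochondrial trifunctional protein and lie head to head on chromosome 5, at 30118304 to 30155162 and 30155248 to 30184593. Hadha measured 12.9, 17.5 and 15.4 FPKM in WT, against 16.6, 20.2 and 16.8 FPKM in CSF1 (log2 change 0.22 ± 0.16, limma adjusted p = 0.3399). Hadhb measured 20.8, 28.3 and 29.5 FPKM in WT, against 29.2, 29.4 and 25.7 FPKM in CSF1 (log2 change 0.11 ± 0.16, limma adjusted p = 0.648). In these 4 genes the groups overlapped. The change of Hadha turned negative with quantile normalization, and those of Hadhb and Cpt2 under all 3 other scalings.

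Of the regulators, Pparg was called. Pparg, the receptor that promotes lipid storage, measured 0.862, 1.03 and 0.353 FPKM in WT, against 2.25, 1.79 and 3.39 FPKM in CSF1. All CSF1 libraries lay above WT, with a log2 change of 0.99 ± 0.26 (limma adjusted p = 0.0189). Its adjusted p was 0.0621 without WT replicate 8, and 0.236 with quantile normalization. Srebf1 measured 21.7, 19.1 and 31.4 FPKM in WT, against 24.5, 28.99 and 28.2 FPKM in CSF1. The groups overlapped and the change of 0.20 ± 0.19 did not pass (limma adjusted p = 0.469), turning to -0.039 with quantile normalization and -0.022 with median-ratio scaling. Ppara, the receptor that drives oxidation in liver, was untested, with 0.1102 to 0.504 FPKM in WT and 0.0443 to 0.293 FPKM in CSF1.

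Several uptake and storage genes are also expressed by macrophages, fat cells or endothelium, and in bulk RNA a change in the number of such cells and a change of RNA per cell cannot be told apart. The 20 macrophage markers summed to 30.4, 39.4 and 146 FPKM in the WT libraries 3, 5 and 8, against 988, 1215 and 3932 FPKM in the CSF1 libraries. Within the CSF1 libraries, 7 of the 34 members (20.6%) had the same order as these markers, with replicate 3 lowest and replicate 8 highest. Of all tested genes, 20.9% had this order too. Among the 13 members called higher, 5 (38.5%) had it, beside 32.8% of all genes called higher. The 7 members in this order included Elovl1 and the untested Elovl6 of the synthetic genes. The rest were Lpl, Cd36, Fabp5, Agpat2 and Plin2 of the storage genes. For Elovl1 the order rested on transcript NM_001039176, listed at 15.5 FPKM in CSF1 replicate 8 and at 0 in every other library. Its main transcript, NM_019422, measured 62.6, 73.4 and 72.6 FPKM in the CSF1 libraries. Elovl7, Dgat1, Acadl and Pparg were also highest in CSF1 replicate 8. In total 11 of the 34 members (32.4%) were highest there, beside 34.2% of all tested genes. Of the 13 members called higher, 8 were highest in that library (61.5%), as were 55.5% of all genes called higher. Of 8 markers of lipid-laden macrophages, 7 were higher, with summed levels of 499 to 702 FPKM in WT and 2260.4 to 4869 FPKM in CSF1. What part macrophage RNA had in these results was not tested. Without both libraries numbered 8, Lpl, Cd36 and Plin2 stayed called (limma adjusted p = 0.00242, 0.000754 and 0.00211) and Pparg missed the threshold (0.0882). The macrophage markers still differed between the libraries left, at 30.4 and 39.4 FPKM in WT against 988 and 1215 FPKM in CSF1. Leaving these libraries out is therefore no test of the part of macrophage RNA.

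Fat cell markers were low. Of 12 adipocyte genes, 3 were tested and 2 were higher, with summed levels of 9.01 to 16.8 FPKM in WT and 27.1 to 68.8 FPKM in CSF1. Lep was listed at 0 in all 6 libraries, Plin1 at 0 in 5 of them, and Adipoq reached at most 0.7298 FPKM. Fabp4, shared by fat cells, endothelium and macrophages, measured 9.98, 4.42 and 4.13 FPKM in WT, against 40.9, 10.6 and 34.2 FPKM in CSF1 (log2 change 1.94 ± 0.49, limma adjusted p = 0.0159). It missed the threshold with an adjusted p of 0.0609 without WT replicate 5 and 0.0632 without WT replicate 8. The 12 endothelial markers summed to 1.98 to 5.46 FPKM in WT and 16.8 to 24.7 FPKM in CSF1. The part of these cells in the results was not tested.

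**Figure D4:**
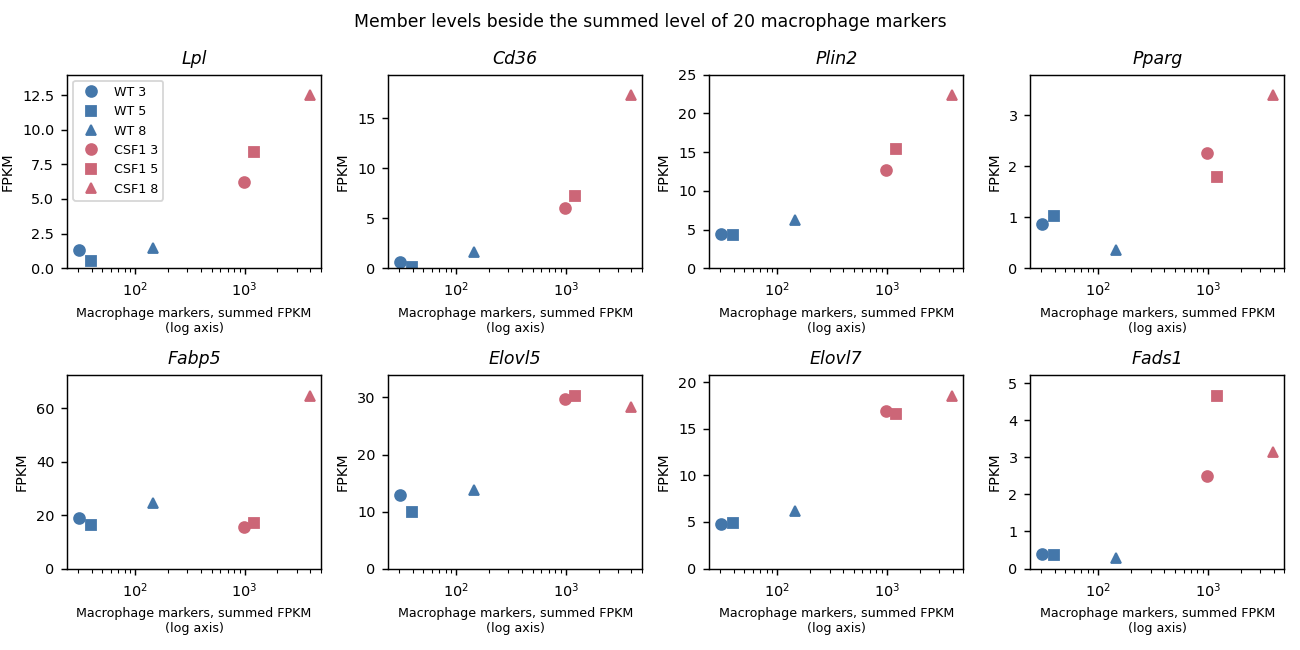
FPKM of 8 members (linear axes) against the summed FPKM of 20 macrophage markers (log axes), with a point for each library, WT in blue and CSF1 in red. Lpl, Cd36, Plin2, Pparg and Fabp5 are highest in CSF1 replicate 8, whereas the CSF1 points of Elovl5 (28.3 to 30.3 FPKM) and Elovl7 (16.6 to 18.6 FPKM) lie close together.

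Other genes of the pathway were taken from 6 lists by role, with 170 genes in the tables and 118 tested. Of these, 22 were higher, 10 were lower and 86 did not pass, and their median log2 change was 0.055, beside 0.17 for all tested genes. The 18.6% called higher and 8.47% called lower stood beside 24.9% and 7.47% of all tested genes. Of the 22 higher, 6 (Hacd4, Acsm3, Agpat4, Agpat9, Angptl4 and Cebpa) had a WT mean under 1 FPKM and entered the fit through their CSF1 level. Other synthetic genes gave 3 higher and 1 lower of 14 tested. Me1, the malic enzyme that supplies NADPH for lipogenesis, measured 7.29, 3.28 and 4.97 FPKM in WT, against 13.4, 16.5 and 15.5 FPKM in CSF1 (log2 change 1.43 ± 0.24, limma adjusted p = 0.00243). Hacd4 and Hacd1, dehydratases of the elongation cycle, rose by 1.42 and 0.76 (limma adjusted p = 0.00353 and 0.00467). Mlycd, which degrades malonyl-CoA, fell by 0.90 with overlapping groups (limma adjusted p = 0.0453), a call lost at adjusted p of 0.158 without WT replicate 5, 0.1301 without WT replicate 8, 0.0936 without CSF1 replicate 3 and 0.117 without CSF1 replicate 8.

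Other activation, storage and lipolysis genes were mostly uncalled. Of 16 tested activation genes, 3 were higher and 0 lower. They were Acot9, a mitochondrial thioesterase (log2 change 1.007, limma adjusted p = 0.00899), Acsm3, a medium-chain synthetase (0.97, adjusted p = 0.0164; 0.185 with quantile normalization), and Dbi, the acyl-CoA binding protein (0.44, adjusted p = 0.02603). Dbi missed the threshold with an adjusted p of 0.109 without WT replicate 5, 0.0644 without WT replicate 8 and 0.107 without CSF1 replicate 5, and 0.194 to 0.2304 under the 3 other scalings. Of 16 tested storage genes, 4 were higher and 1 lower. Beside Fabp4, the acyltransferase genes Agpat4 and Agpat9 rose by 1.89 and 1.63 (limma adjusted p = 0.00337 and 0.000491), and the droplet protein gene Hilpda by 0.74 (0.00516). Agpat3 fell by 0.58 (limma adjusted p = 0.04903), and its adjusted p was 0.05196 with the replicate block, 0.143 without WT replicate 5, 0.145 without WT replicate 8, 0.108 without CSF1 replicate 3 and 0.127 without CSF1 replicate 8. Of 9 tested lipolysis genes, 2 were higher and 0 lower. G0s2, an inhibitor of adipose triglyceride lipase, rose from 1.07 ± 0.176 to 4.48 ± 0.383 FPKM (SD, n = 3; limma adjusted p = 0.000651). Lipa, the lysosomal acid lipase, which is also among the markers of lipid-laden macrophages, rose from 2.86 ± 0.563 to 8.203 ± 3.11 FPKM (SD, n = 3; limma adjusted p = 0.00668).

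Of 36 other oxidation genes tested, 6 were higher and 4 were lower. Eci3, an enoyl-CoA isomerase, rose from 4.801 ± 1.42 to 14.2 ± 2.07 FPKM (SD, n = 3; limma adjusted p = 0.00161), and Acad9, a dehydrogenase that also assembles respiratory complex I, rose by 0.98 in log2 (limma adjusted p = 0.00706). Those that fell were Acox3, Ehhadh, Phyh and Hsd17b10, and all but the last encode peroxisomal enzymes. Acox3, a branched-chain acyl-CoA oxidase, fell by 0.79 (limma adjusted p = 0.0195), a call lost at adjusted p of 0.0724 without WT replicate 5, 0.0639 without WT replicate 8, 0.0602 without CSF1 replicate 3 and 0.0506 without CSF1 replicate 8. The rest of the lower genes were picked out after their values were seen. Phyh, which starts the breakdown of phytanic acid, fell from 132 ± 12.1 to 80.7 ± 15.6 FPKM (SD, n = 3; limma adjusted p = 0.0116). Ehhadh, a bifunctional enzyme, fell by 0.75 (limma adjusted p = 0.0227), and its adjusted p was 0.0519 without WT replicate 3, 0.0772 without WT replicate 8, 0.0714 without CSF1 replicate 5 and 0.0604 without CSF1 replicate 8. Hsd17b10, a mitochondrial dehydrogenase, fell by 0.64 (limma adjusted p = 0.007404). With the replicate block, Hsd17b4 and Slc22a5, among the 6 higher genes at adjusted p of 0.0458 and 0.0495, missed the threshold (limma adjusted p = 0.0509 and 0.0589). Slc25a20, which carries acylcarnitine across the inner membrane, passed as higher with the block (log2 change 0.44, limma adjusted p = 0.0414) and not without it (0.0614).

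The other regulators gave 4 higher and 4 lower of 27 tested. Angptl4, a PPAR target whose product inhibits lipoprotein lipase, measured 0.148, 0 and 0.131 FPKM in WT, against 3.29, 12.1 and 4.296 FPKM in CSF1 (log2 change 2.61 ± 0.39, limma adjusted p = 0.00131). Cebpb, a transcription factor of fat cell differentiation and inflammation, rose from 49.9 ± 11.3 to 213 ± 54.2 FPKM (SD, n = 3; limma adjusted p = 0.000234). Klf15, a metabolic transcription factor, fell from 31.8 ± 1.04 to 11.4 ± 4.43 FPKM (SD, n = 3; limma adjusted p = 0.00353). Insig1, Scap and Rxrg were picked out after their values were seen. Insig1, which retains SREBP in the endoplasmic reticulum, fell from 19.2 ± 8.29 to 6.63 ± 0.404 FPKM, and Scap, which escorts SREBP out of it, from 27.5 ± 4.34 to 15.4 ± 2.02 FPKM (SD, n = 3; limma adjusted p = 0.00619 and 0.00705). Rxrg, a partner of PPAR, fell by 1.11 with overlapping groups (limma adjusted p = 0.0344), a call lost at adjusted p of 0.113 without WT replicate 5, 0.113 without WT replicate 8, 0.102 without CSF1 replicate 3 and 0.0925 without CSF1 replicate 8.

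**Figure D5:**
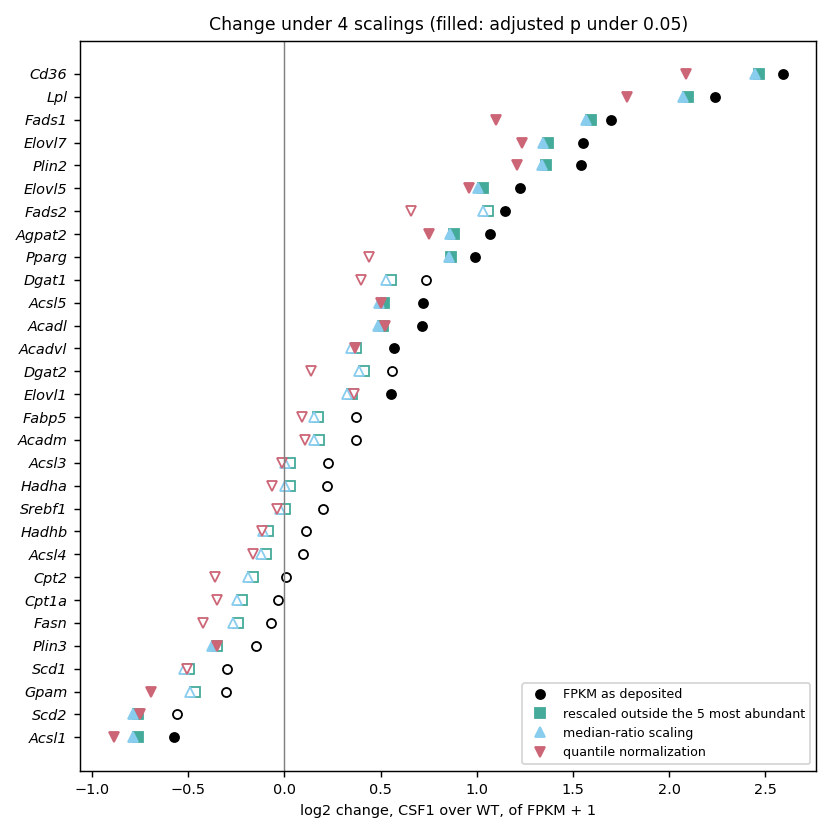
log2 change of FPKM + 1 of the 30 tested members under 4 scalings, filled where the adjusted p was under 0.05. Cd36, Lpl, Fads1, Elovl7, Plin2 and Elovl5 are filled above 0 under each scaling, and Acsl1 is filled below 0 under each.

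Calls of the members differed in how firmly they held. Lpl, Cd36, Plin2, Elovl5, Elovl7 and Fads1 passed in each alternative that tested them, the 4 plotted scalings included. The number of members called higher was 11 to 13 when a single library was left out, and 8, 9 and 13 without both libraries numbered 3, 5 and 8.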

How the data were processed

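RNA of sorted luminal cells was sequenced in 3 WT and 3 CSF1 libraries. The labels' protocols name the SMART-Seq v4 kit for cDNA and both Nextera XT and TruSeq DNA kits for libraries, none of which marks strand. Per the submitters' processing notes, bcl2fastq 1.8.3, TopHat, Cufflinks and mm10 were used. For each library the authors deposited a Cufflinks table of FPKM for 34535 RefSeq transcripts. The deposited coverage is a signal, used only to compare depth; fragment totals were not given, so the depth behind a single value is unknown.

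FPKM were summed per symbol, and 9 genes with a failed status, no member among them, were left out. Genes averaging 1 FPKM or more over the 6 libraries were tested as log2(FPKM + 1) in limma 3.58.1 (R 4.3.3, data.table version 1.17.8) with an intensity trend, two-sided, with Benjamini-Hochberg adjustment over all tested genes at 0.05. The fit was tested on simulated data. Deviations of same-numbered libraries correlated across genes (0.257, 0.111 and 0.182 for 3, 5 and 8), so the numbers, unexplained in the labels, may pair libraries. The main fit had genotype only and did not use this pairing. Each adjusted p given without a named setting is therefore unpaired. A replicate block, which uses the pairing, was an alternative, as were other scalings, filters and pseudocounts and left-out libraries. Positions and exon overlaps come from GENCODE M21 (GRCm38), promoters from RefSeq GRCm38.p6. Members, lists and tests were chosen with earlier results of these data known. All members are named, and from each further list the 3 called genes with the largest changes, with others where stated.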

Additional observations from a re-analysis of the deposited data

How the results depend on the processing

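Each value was recomputed under 21 other settings, of which 3 (both libraries of a number left out) were added after the data had been seen. Of 624 values for the 30 tested members, 534 kept direction and side of the threshold, 45 lost the call, 16 gained it and 29 changed sign, 0 of them on the 14 called members. Of 683 values for the other 33 named genes, 560 kept the call, 123 lost it and 0 changed sign. With the replicate block, 13 members were higher and 1 lower, and no member's call changed. Of the other fatty acid genes, Agpat3, Hsd17b4 and Slc22a5 lost their call and Slc25a20 gained it, leaving 21 higher and 9 lower. Of all tested genes, 2883 were higher and 890 lower with the block. The causes of these shifts were not tested. The tables give no fragment totals, so what depth limits could not be computed.

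With quantile normalization, 4 members were lower, 14 other fatty acid genes were higher and 31 lower, and 1694 of all tested genes were higher and 2362 lower. With median-ratio scaling, 3 members, 27 other fatty acid genes and 1762 of all genes were lower, and with rescaling outside the 5 most abundant genes 2, 20 and 1445 were. With no filter, 0 members and 6 other fatty acid genes were lower. With a mean of at least 5 FPKM, which tests fewer genes, 1761 of all genes were higher. With array weights, 0 members and 17 other fatty acid genes were lower. Leaving out a single library gave 0 to 1 members lower, 11 to 13 higher, 15 to 25 other fatty acid genes higher and 5 to 15 lower, and 2053 to 2489 of all genes higher and 478 to 850 lower. Without both libraries numbered 3, 8 members were higher and 0 lower. Without both numbered 5, 0 members were lower, 11 other fatty acid genes were higher and 4 lower, and 1519 of all genes were higher and 341 lower. Without both numbered 8, 0 members, 5 other fatty acid genes and 485 of all genes were lower.

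Sign changes of log2 values were as follows. With quantile normalization they gave -0.013 for Acsl3, -0.17 for Acsl4, -0.36 for Cpt2, -0.062 for Hadha, -0.12 for Hadhb and -0.039 for Srebf1. With median-ratio scaling they gave -0.12 for Acsl4, -0.19 for Cpt2, -0.11 for Hadhb and -0.022 for Srebf1, and outside the 5 most abundant genes -0.097, -0.17 and -0.085 for Acsl4, Cpt2 and Hadhb. With array weights they gave 0.14 for Cpt1a and -0.045 for Cpt2. Without both libraries numbered 3 they gave -0.024 for Cpt2 and -0.069 for Hadhb, without both numbered 5 -0.097 for Acsl4 and -0.078 for Cpt2, and without both numbered 8 0.21 for Cpt1a and -0.12 for Fabp5. Leaving out a single library gave -0.069 to 0.26 for Acsl4, -0.19 to 0.15 for Cpt1a, -0.16 to 0.14 for Cpt2, -0.27 to 0.73 for Fabp5, -0.15 to 0.044 for Fasn and -0.041 to 0.20 for Hadhb.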
